A study of Canis lupus familiaris with 8 samples.

Results

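cfa-miR-21, cfa-miR-29a, cfa-miR-29b and cfa-miR-29c, the canine listings of miR-21 and of the 3 miR-29 family members, were followed in blood serum from Doberman Pinschers that had dilated cardiomyopathy (DCM), an enlargement of the heart with failing contraction. They are 4 of the 1224 miRNA names on a custom array that lists 289 canine and 935 murine names, and were chosen by their names on the array. The array lists neither miR-21 nor miR-29a, miR-29b or miR-29c as murine names, apart from the star names of the opposite hairpin strands, so each member had a single listing.

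Serum came from 4 dogs with DCM, on arrays labelled DoCM5 to DoCM8, and from 4 healthy dogs, on arrays labelled Con1 to Con4. All were client-owned adult Doberman Pinschers, and their labels give ages of 7 to 11 years, a range that the ages listed by the study for single dogs do not all meet. Dogs of the DCM group were in the occult stage, in which the heart is altered and the owner sees no illness, and all received pimobendan, an ACE inhibitor and either sotalol or amiodarone, whereas no therapy is described for the control group. Disease and medication therefore cannot be told apart. The DCM arrays filled one row of the slide and the control arrays the other, and slide row and disease cannot be told apart either. Serum holds miRNAs released by many tissues and blood cells, and fewer releasing cells and less RNA per cell cannot be told apart.

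miRNAs are short RNAs that bind messenger RNAs and lower their translation or stability. miR-21 is abundant in cardiac fibroblasts and is known as a profibrotic miRNA, because it represses Sprouty1, a brake on the ERK pathway that keeps fibroblasts alive and growing. The miR-29 family is known for the opposite role, since it represses collagens, elastin, fibrillin and other proteins of the extracellular matrix. miR-29a, miR-29b and miR-29c share one seed, the stretch that pairs with target messages, and miR-29a and miR-29c have nearly identical mature sequences, so that probes for one may also bind the other. This cross-binding was not tested. In the gene table of the dog assembly UU_Cfam_GSD_1.0 from RefSeq, MIR29A lies next to MIR29B-1, and MIR29B-2 lies next to MIR29C-2, while MIR21 lies apart from both pairs. Its build differs from that named in the array files, and its coordinates were not used.

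The methods of the study leave out DoCM8 for its deviating expression levels, and the main comparison was made over the 7 remaining arrays. Among the deposited arrays it was DoCM5 that correlated least with the rest, at a median of 0.924 against 0.957 to 0.968, and it also had the highest median log2 signal, 5.09 against 3.68 to 4.85. These are the traits by which the study describes the sample it removed, so its numbering may differ from that of the labels, and the 7 arrays of the main comparison may not be the set that the study used. The labels were followed. The comparisons of the 4 miRNAs and of the lists are therefore given over 7 arrays, over all 8 arrays, and without DoCM5 in place of DoCM8. Per array, between 10817 and 14000 features were well above background, and 438 names were detected. The labels name 1 dog per array, so the spread between arrays holds the differences between dogs, and the number of arrays limits the precision.

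All 4 miRNAs were measured clearly in serum. Each was carried by 2 probes with 20 features each, and all 40 features were well above background on every array, except that cfa-miR-29b had 39 of 40 on Con2. No feature was saturated. The background-subtracted signal of cfa-miR-21 was 2155, 1432, 592 and 931 on DoCM5 to DoCM8, and 967, 409, 1138 and 403 on Con1 to Con4. Before normalization the groups overlapped, as DoCM7 and DoCM8 lay below Con1 and Con3. On the log2 scale the unnormalized signal was 0.81 higher in DCM over all 8 arrays, with an SD of 0.80 in each group (exact permutation test, two-sided p = 0.200).

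The probes of each miRNA followed each other closely from array to array. The signal of the second probe of cfa-miR-21 was 1.92 to 2.14 times that of the first, over the 8 arrays. This ratio ran from 2.80 to 3.31 for cfa-miR-29a, from 13.0 to 15.8 for cfa-miR-29b and from 1.13 to 1.21 for cfa-miR-29c. The first probe of cfa-miR-29b was thus the dimmest of the 8 probes relative to its partner. Among the 20 features of a probe, the median coefficient of variation was 5.13% for cfa-miR-21, 4.12% for cfa-miR-29a, 6.52% for cfa-miR-29b and 5.01% for cfa-miR-29c. The highest value, 20.6%, belonged to the dim probe of cfa-miR-29b on Con2.

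**Figure D1:**
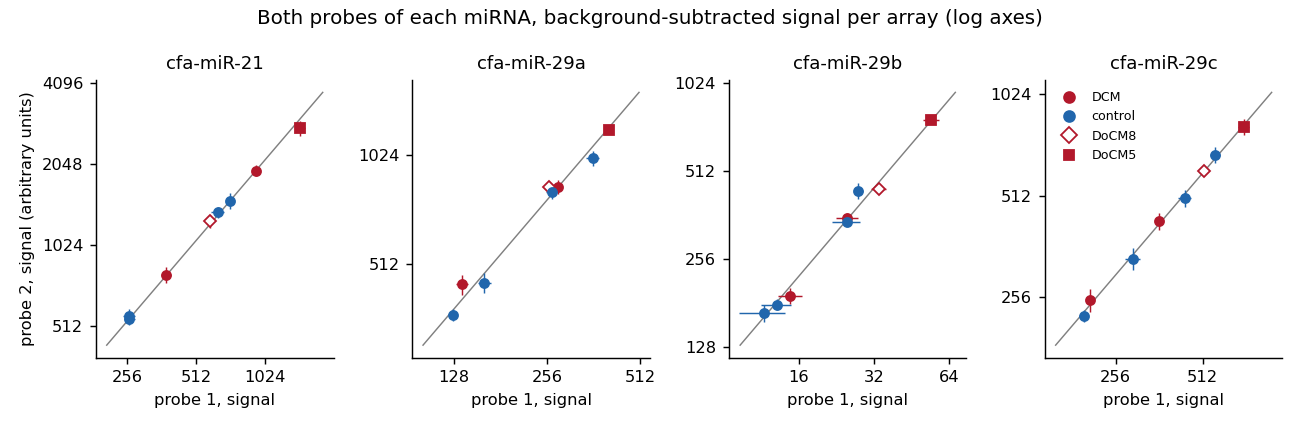
Background-subtracted signal of the second probe against the first for each miRNA, 1 point per array on log2-scaled axes, as mean and SD over the features of a probe. Red marks DCM (square DoCM5, open diamond DoCM8), blue marks control, and the grey line is the mean ratio. The points follow the line in all 4 panels, at a ratio of 1.92 to 2.14 for cfa-miR-21 and of 13.0 to 15.8 for cfa-miR-29b.

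Signals were then normalized between arrays by the vsn model, which gives a generalized log2 value (glog2). A difference of 1 glog2 unit is a doubling at the brightness of these miRNAs. Values of different miRNAs come from different probes and do not rank their abundance.

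cfa-miR-21 separated the groups on the arrays but missed the limit of the test over 7 arrays. Its normalized value was 9.86, 10.45, 9.96 and 10.09 on DoCM5 to DoCM8, and 9.67, 9.23, 9.59 and 9.17 on Con1 to Con4. Each DCM array, DoCM8 included, lay above each control array. The gap was narrow between DoCM5 and Con1 and widest between DoCM6 and Con4. Over 7 arrays the mean was 10.09 ± 0.31 in DCM (SD, n = 3) and 9.41 ± 0.25 in control (SD, n = 4), a log2 fold change of 0.68 (SE 0.32, 95% interval -0.036 to 1.39) or 1.60-fold. The p-value from limma was 0.0607, above the limit of 0.05, and 0.9996 after Benjamini-Hochberg adjustment over all 438 names. The exact permutation test gave a two-sided p of 0.0286, the smallest that 3 against 4 arrays allow.

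This call depended on the arrays used. Over all 8 arrays cfa-miR-21 was 10.09 ± 0.26 in DCM (SD, n = 4), again with a log2 fold change of 0.68 (SE 0.27, 95% interval 0.086 to 1.26), and passed both limits of the methods, an unadjusted p under 0.05 and a fold change over 1.5 (limma, p = 0.0281, adjusted p = 0.961; exact permutation test, two-sided p = 0.0286). With DoCM5 left out in place of DoCM8 the log2 fold change was 0.75 (SE 0.23, 95% interval 0.22 to 1.28), and both limits were passed again (limma, p = 0.0107, adjusted p = 0.514; exact permutation test, two-sided p = 0.0286). Of all 438 names, 17 (3.88%) passed both limits over 8 arrays and 23 (5.25%) without DoCM5. The adjusted p stayed above 0.05 in each of the 3 sets of arrays, where 0 of the 438 names passed in limma against 11 (2.51%), 18 (4.11%) and 29 (6.62%) at an unadjusted p under 0.05.

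Each column of the slide held 1 DCM and 1 control array. Within these columns cfa-miR-21 was higher in DCM in 4 of 4, with glog2 differences from 0.19 to 1.22. This count follows from the separation of the groups under any matching of the arrays. With the column as a block over 7 arrays the log2 fold change was 0.59, and the limits were not passed (SE 0.42, adjusted p = 0.993 in limma). The first and the second probe, tested on their own over 7 arrays, gave log2 fold changes of 0.74 (limma, p = 0.0512; exact permutation test, two-sided p = 0.0286) and 0.68 (limma, p = 0.0706; exact permutation test, two-sided p = 0.0571).

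Among the miR-29 family, cfa-miR-29b had the clearest separation of the groups, and its fold change was small. Its normalized value was 7.44, 7.48, 7.46 and 8.15 on DoCM5 to DoCM8, and 7.15, 7.01, 7.38 and 7.14 on Con1 to Con4. The DCM arrays lay above the control arrays, although only narrowly above Con3, and DoCM8 stood well above the other DCM arrays. Over 7 arrays the mean was 7.46 ± 0.021 in DCM (SD, n = 3) and 7.17 ± 0.16 in control (SD, n = 4), a log2 fold change of 0.29 (SE 0.30, 95% interval -0.37 to 0.94). It did not pass the limits (limma, p = 0.358, adjusted p = 0.9996; exact permutation test, two-sided p = 0.0571). Over all 8 arrays the log2 fold change was 0.46 (SE 0.27, limma p = 0.120, adjusted p = 0.961), and the exact permutation test gave a two-sided p of 0.0286. With DoCM5 left out in place of DoCM8 it was 0.52 (SE 0.24, limma p = 0.0600, adjusted p = 0.737; exact permutation test, two-sided p = 0.0286), again not past the limits. Within the slide columns the DCM array was higher in 4 of 4, by 0.073 to 1.003, a count that again follows from the separation.

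cfa-miR-29a did not differ beyond the spread of the arrays. Its normalized value was 8.38, 9.10, 8.94 and 9.32 on DoCM5 to DoCM8, and 8.79, 8.85, 8.86 and 8.47 on Con1 to Con4. DoCM5 was the lowest of all 8 arrays, while the other DCM arrays lay above every control array. Over 7 arrays the mean was 8.81 ± 0.38 in DCM (SD, n = 3) and 8.74 ± 0.19 in control (SD, n = 4), a log2 fold change of 0.063 (SE 0.33, 95% interval -0.65 to 0.78; limma, p = 0.850, adjusted p = 0.9996; exact permutation test, two-sided p = 0.771). Over all 8 arrays it was 0.19 (SE 0.29, limma p = 0.514, adjusted p = 0.990; exact permutation test, two-sided p = 0.400). Without DoCM5 in place of DoCM8 the groups no longer overlapped, and the log2 fold change was 0.38 (SE 0.21, 95% interval -0.11 to 0.86; limma, p = 0.111, adjusted p = 0.797; exact permutation test, two-sided p = 0.0286), below the fold limit.

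cfa-miR-29c likewise overlapped between the groups, in each of the 3 sets of arrays. Its normalized value was 8.37, 8.61, 8.60 and 9.36 on DoCM5 to DoCM8, and 8.63, 8.84, 8.71 and 8.24 on Con1 to Con4. The DCM arrays other than DoCM8 lay within the range of the control arrays, and DoCM8 lay above every control array. Over 7 arrays the mean was 8.53 ± 0.14 in DCM (SD, n = 3) and 8.60 ± 0.26 in control (SD, n = 4), a log2 fold change of -0.079 (SE 0.31, 95% interval -0.76 to 0.61; limma, p = 0.806, adjusted p = 0.9996; exact permutation test, two-sided p = 0.600). The sign turned with DoCM8 in the comparison. The log2 fold change was 0.13 over all 8 arrays (SE 0.30, limma p = 0.670; exact permutation test, two-sided p = 0.714) and 0.25 without DoCM5 (SE 0.27, limma p = 0.374; exact permutation test, two-sided p = 0.514). Within the slide columns the DCM array was higher in 1 of 4, the column of DoCM8.

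**Figure D2:**
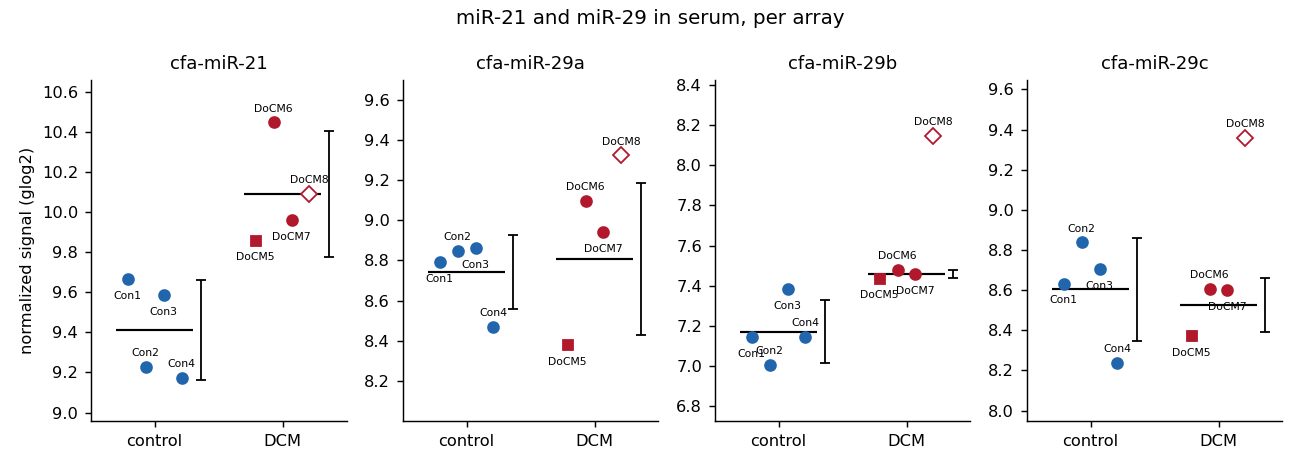
Normalized signal (glog2) of the 4 miRNAs on each array, control in blue and DCM in red. Each axis spans the same number of units, the line and bar are mean and SD without DoCM8 (open diamond), and the square is DoCM5. For cfa-miR-21 and cfa-miR-29b each DCM array lies above each control array, while cfa-miR-29a and cfa-miR-29c overlap.

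Counted together over 7 arrays, 0 of the 4 miRNAs passed both limits, against 11 of 438 names (2.51%). Each DCM array exceeded each control array for 2 of the 4, cfa-miR-21 and cfa-miR-29b, against 12 of 438 names (2.74%). Over all 8 arrays 1 of the 4, cfa-miR-21, passed both limits, against 17 of 438 names (3.88%). The same 2 of the 4 were without overlap, against 7 of 438 names (1.60%). Without DoCM5 in place of DoCM8 this held for cfa-miR-21, cfa-miR-29a and cfa-miR-29b, 3 of the 4, against 10 of 438 names (2.28%). The median log2 fold change of all names was near 0, at 0.0016, -0.00067 and 0.0047 in the 3 sets of arrays. The control arrays agreed more closely for these miRNAs than for most, with SDs from 0.16 to 0.26 against a median of 0.36 over all names. That median includes dim names, and names of like brightness were not compared, so this is not shown to be particular to the 4 miRNAs.

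**Figure D3:**
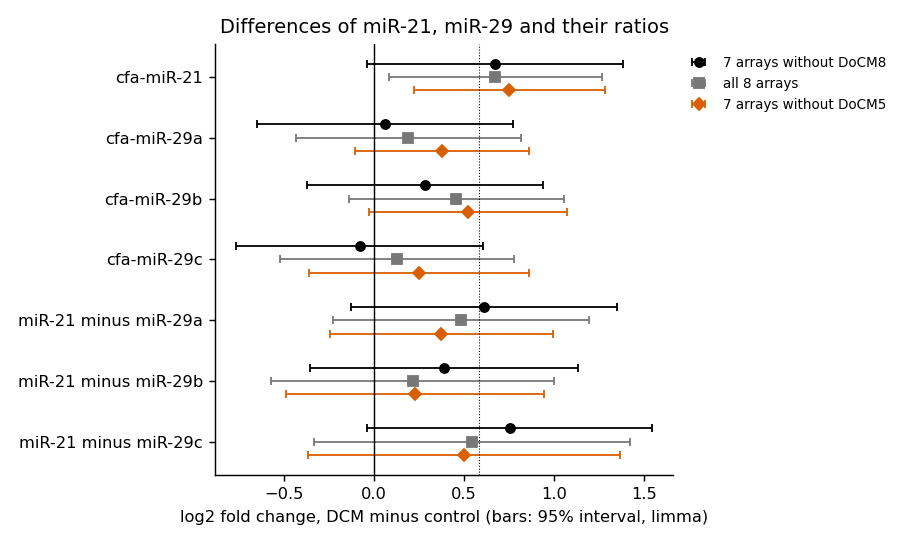
Log2 fold change of DCM minus control with its 95% interval from limma, for the 4 miRNAs and for cfa-miR-21 relative to each miR-29, over 7 arrays without DoCM8 (black), all 8 arrays (grey) and 7 arrays without DoCM5 (orange). The solid line is 0 and the dotted line a fold change of 1.5. Of the 21 intervals, those of cfa-miR-21 over 8 arrays and without DoCM5 exclude 0.

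The balance of the profibrotic to the antifibrotic miRNAs was measured as the difference in glog2 between cfa-miR-21 and each miR-29 on the same array. A shift of the whole array drops out of such a difference, and it shows unequal change of both miRNAs, not which of them changed. Relative to cfa-miR-29a, cfa-miR-21 stood at 1.48, 1.35, 1.02 and 0.77 on DoCM5 to DoCM8, and at 0.87, 0.38, 0.72 and 0.70 on Con1 to Con4. DoCM5, DoCM6 and DoCM7 lay above the control arrays, whereas DoCM8 lay among them. The mean over 7 arrays was 1.28 ± 0.24 in DCM (SD, n = 3) and 0.67 ± 0.21 in control (SD, n = 4), a difference of 0.61 (SE 0.34, 95% interval -0.13 to 1.35). In limma, where each of 437 names was set against cfa-miR-29a in the same way, p was 0.0959 and the adjusted p 0.999. The exact permutation test gave a two-sided p of 0.0286, and 8 of the 437 names (1.83%) were higher in DCM without overlap.

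Relative to cfa-miR-29c the pattern was the same and the difference larger in size. cfa-miR-21 stood at 1.49, 1.84, 1.36 and 0.73 on DoCM5 to DoCM8, and at 1.03, 0.39, 0.88 and 0.93 on Con1 to Con4. DoCM8 again lay among the control arrays, and the other DCM arrays lay above them. The difference of the means over 7 arrays was 0.75 (SE 0.37, 95% interval -0.038 to 1.55), from 1.56 ± 0.25 in DCM (SD, n = 3) and 0.81 ± 0.29 in control (SD, n = 4). It did not pass the limits (limma, p = 0.0605, adjusted p = 0.987; exact permutation test, two-sided p = 0.0286), and 14 of the 437 names (3.20%) were higher in DCM without overlap relative to cfa-miR-29c.

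Relative to cfa-miR-29b, the member whose own value separated the groups, the balance overlapped. cfa-miR-21 stood at 2.42, 2.97, 2.50 and 1.94 on DoCM5 to DoCM8, and at 2.52, 2.22, 2.20 and 2.03 on Con1 to Con4. Con1 lay above DoCM5 and DoCM7, and DoCM8 was the lowest of all arrays. The difference of the means over 7 arrays was 0.39 (SE 0.34, 95% interval -0.35 to 1.13; limma, p = 0.279, adjusted p = 0.842; exact permutation test, two-sided p = 0.114). The names higher in DCM without overlap relative to cfa-miR-29b were 2 of 437 (0.458%).

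The separation of the balance rested on leaving out DoCM8. Over all 8 arrays the groups overlapped relative to each miR-29, with differences of 0.48 for cfa-miR-29a (exact permutation test, two-sided p = 0.0571), 0.22 for cfa-miR-29b (p = 0.429) and 0.55 for cfa-miR-29c (p = 0.114). With DoCM5 left out in place of DoCM8 the differences were 0.37, 0.23 and 0.50, and the groups overlapped relative to each (exact permutation test, two-sided p = 0.114, 0.429 and 0.229). The DCM mean stayed above the control mean in all 9 of these comparisons, and 0 of the 9 passed the limits. Of the 437 names set against cfa-miR-29a, cfa-miR-29b and cfa-miR-29c, 2.06%, 6.18% and 2.06% passed over 7 arrays, 5.72%, 15.1% and 3.20% over all 8 arrays, and 16.7%, 23.6% and 5.49% without DoCM5. Within the slide columns the balance was higher in the DCM array in 4 of 4 columns for cfa-miR-29a, 2 of 4 for cfa-miR-29b and 3 of 4 for cfa-miR-29c. Unnormalized signals gave nearly the same balance, with 1.02 to 1.49 on DoCM5 to DoCM7 and 0.38 to 0.87 on the control arrays for cfa-miR-29a on the log2 scale.

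**Figure D4:**
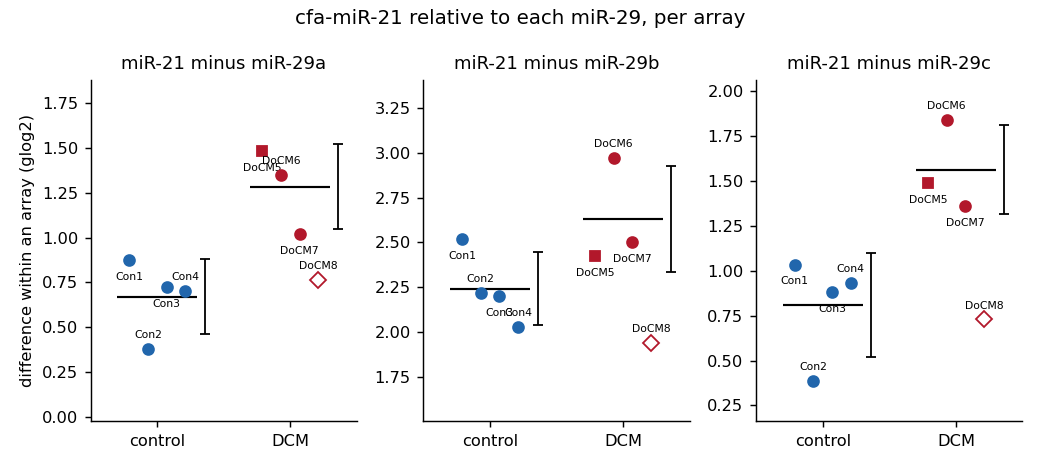
Difference in glog2 between cfa-miR-21 and each miR-29 on the same array, control in blue and DCM in red, with mean and SD without DoCM8 (open diamond). DoCM5 (square), DoCM6 and DoCM7 lie above the control arrays for cfa-miR-29a and cfa-miR-29c, and DoCM8 lies at 0.77, 1.94 and 0.73, within or below the control range.

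Within the miR-29 family the differences between members varied from array to array. DoCM8 was the highest of the 8 arrays for each of the 3 miR-29 members, whereas for cfa-miR-21 it lay below DoCM6. cfa-miR-29a minus cfa-miR-29c was 0.0080, 0.49, 0.34 and -0.036 on DoCM5 to DoCM8, and 0.16, 0.010, 0.16 and 0.23 on Con1 to Con4. These near-identical members stayed within a narrow band, and their groups overlapped. cfa-miR-29a minus cfa-miR-29b ran from 0.94 on DoCM5 to 1.84 on Con2, over a wider band. cfa-miR-29b minus cfa-miR-29c ran from -1.83 on Con2 to -0.93 on DoCM5. For both pairs that are encoded side by side, the difference thus varied by 0.90 between arrays.

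The normalized values of cfa-miR-29a and cfa-miR-29c ran parallel over the 8 arrays, with Pearson's r = 0.84 (exact permutation p = 0.00843, adjusted p = 0.0506 over the 6 relations among the 4 miRNAs) and Spearman's rho = 0.60 (exact permutation p = 0.132, adjusted p = 0.198). Without DoCM5 and DoCM8, the arrays farthest from the median of cfa-miR-29a, r was 0.67. The part of cross-binding in this was not tested. With the mean of each group taken out, an analysis chosen after seeing the data, r was again 0.84 (exact permutation within groups, two-sided p = 0.0330, adjusted p = 0.198 over the 6 relations). For cfa-miR-29a and cfa-miR-29b Pearson's r was 0.63 (exact permutation p = 0.0962, adjusted p = 0.152), Spearman's rho 0.69 (exact permutation p = 0.0694, adjusted p = 0.166), r without DoCM5 and DoCM8 0.62, and r within groups 0.59 (exact permutation p = 0.326, adjusted p = 0.490). For cfa-miR-29b and cfa-miR-29c Pearson's r was 0.67 (exact permutation p = 0.102, adjusted p = 0.152), Spearman's rho 0.14 (exact permutation p = 0.752, adjusted p = 0.752), r without DoCM8 and Con2 0.35, and r within groups 0.75 (exact permutation p = 0.130, adjusted p = 0.391). Taken by group, r of this pair was 0.98 over the DCM arrays and -0.055 over the control arrays. Over the 8 arrays the members of the family thus had positive coefficients in each pair. Within the control group cfa-miR-29b and cfa-miR-29c did not. After adjustment no relation among the members of the family passed 0.05.

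Among the relations of cfa-miR-21 to the miR-29 members over the 8 arrays, that to cfa-miR-29b was the closest, with Spearman's rho = 0.93 (exact permutation p = 0.00223, adjusted p = 0.0134) and Pearson's r = 0.67 (exact permutation p = 0.0660, adjusted p = 0.152). Without DoCM6 and Con4, the arrays farthest from the median of cfa-miR-21, r was 0.82. Both miRNAs lay higher on each DCM array than on each control array, so this value holds the difference between the groups. With the mean of each group taken out, r was 0.20 (exact permutation within groups, two-sided p = 0.682, adjusted p = 0.682). For cfa-miR-29a Pearson's r was 0.57 (exact permutation p = 0.140, adjusted p = 0.168), Spearman's rho 0.67 (exact permutation p = 0.0831, adjusted p = 0.166), r without the same 2 arrays 0.28, and r within groups 0.56 (exact permutation p = 0.198, adjusted p = 0.396). For cfa-miR-29c Pearson's r was 0.30 (exact permutation p = 0.488, adjusted p = 0.488), Spearman's rho 0.17 (exact permutation p = 0.703, adjusted p = 0.752), r without these arrays 0.20, and r within groups 0.23 (exact permutation p = 0.616, adjusted p = 0.682).

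For likeness, each of 269 names well above background on all 8 arrays was set against cfa-miR-21 by Pearson's r over the 8 arrays, as a description that carries the difference between the groups and shares their normalization. The 5 most alike were mmu-miR-144 (r = 0.84), an erythroid miRNA, then mmu-miR-101c (0.82), cfa-miR-101 (0.82) and mmu-miR-101a (0.81), which are listings of one family, and mmu-miR-142-5p (0.76), a miRNA of blood cells. The miR-29 members came later, cfa-miR-29b at rank 10 (0.67), cfa-miR-29a at rank 20 (0.57) and cfa-miR-29c at rank 42 (0.30). For cfa-miR-29a the most alike was mmu-miR-5131 (0.86), followed by cfa-miR-29c (0.84), mmu-miR-187* (0.76), mmu-miR-322 (0.74) and mmu-miR-3474 (0.74), and cfa-miR-29b came at rank 22 (0.63). Different miRNAs thus ran closest to cfa-miR-21 and to cfa-miR-29a.

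As blood-cell miRNAs were among those most like cfa-miR-21, markers of blood cells were examined. Of the 5 erythrocyte listings detected, 1 passed both limits over 7 arrays, mmu-miR-144 with a log2 fold change of 0.81 (SE 0.34), and of the 7 leukocyte listings detected of 8, 1 passed, mmu-miR-142-3p with 1.23 (SE 0.38). Both passed in each of the 3 sets of arrays. The median of the erythrocyte list was 0.26 over 7 arrays, 0.097 over all 8 arrays and 0.21 without DoCM5, with 4, 5 and 4 of the 5 listings above 0. That of the leukocyte list was 0.19, 0.093 and 0.24, with 6 of 7 above 0 in each set. Among all 438 names, 222, 219 and 220 lay above 0 in the 3 sets. Of the 7 platelet listings 0 passed in each set, with a median of 0.0048 over 7 arrays, -0.087 over all 8 arrays and -0.30 without DoCM5. The platelet list held cfa-miR-223 and mmu-miR-223, although leukocytes also carry miR-223, so the leukocyte list and its sum leave them out. Their log2 fold changes over 7 arrays were -0.36 (SE 0.37) and -0.43 (SE 0.38). Of all 438 names, 11 (2.51%) passed. Over all 8 arrays 2 of the 5 erythrocyte listings passed, with cfa-miR-144 at 0.76 (SE 0.33), against 17 of 438 names (3.88%). The summed level of the leukocyte list ran from 9.61 to 9.82 in DCM and from 9.02 to 9.99 in control on the log2 scale. That of the erythrocyte list ran from 16.70 to 17.29 and from 16.89 to 17.20, and that of the platelet list from 12.75 to 13.54 and from 13.26 to 13.65. All 3 ranges overlapped between the groups. In the leukocyte list the overlap came from Con2 (9.99), with the other control arrays at 9.02 to 9.41. Over 7 arrays the mean sum in DCM minus control was 0.31 for leukocytes, -0.0014 for erythrocytes and -0.21 for platelets. The erythrocyte sum was made up mostly of cfa-miR-451, 85.7% to 94.5% of it per array, whose log2 fold change was -0.019, and so shows little of the other listings. The part of blood cells in the values of cfa-miR-21 was not tested. The heart markers cfa-miR-208a and cfa-miR-208b were not detected. Of the 8 heart and skeletal muscle listings 5 were detected. Over 7 arrays 0 passed higher in DCM, against 1.37% of all names, and 1 lower, against 1.14%. The latter was mmu-miR-208a-5p, which did not pass in the other sets. It is a murine listing, and what its probes bind in dog serum was not tested. cfa-miR-499, a miRNA of heart and slow muscle, was detected on every array, with log2 fold changes of 0.61 (SE 0.38), 0.69 and 0.50 in the 3 sets, past the limits in none. Over 7 arrays 3 of the 5 listings lay above 0, over all 8 arrays 2 and without DoCM5 2, with medians of 0.034, -0.13 and -0.15. Their summed level ran from 6.97 to 7.49 in DCM and from 6.85 to 8.66 in control. The liver miRNA cfa-miR-122 had a log2 fold change of -0.77 (SE 0.66) over 7 arrays, -0.69 over all 8 arrays and -0.34 without DoCM5, and did not pass in any of them.

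Other miRNAs described in cardiac fibrosis were counted in the same way. Of the listings described as promoting fibrosis, such as miR-34a, miR-155, miR-199a and miR-208, 5 of 12 were detected, with a median log2 fold change of -0.23 over 7 arrays, -0.13 over all 8 arrays and 0.0046 without DoCM5. Of these 0 were past both limits and higher in DCM, against 1.37% of all names. The 1 listing that was past both and lower, against 1.14% of all names, was mmu-miR-208a-5p at -1.19 on the log2 scale (SE 0.37). This murine listing is named for one arm of a heart miRNA whose canine listings were not detected. It did not pass over all 8 arrays (-0.84, SE 0.40) or without DoCM5 (-0.61, SE 0.39).

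Of the listings described as restraining fibrosis, such as miR-24, miR-26, miR-30c, miR-101, miR-133 and miR-214, 20 of 21 were detected and 0 passed both limits in either direction over 7 arrays, against 2.51% of all names. Their median was 0.30, and 13 of the 20 had a log2 fold change above 0, against 222 of all 438 names. Several miRNAs, among them miR-15b, miR-18a and miR-26b, entered by both a canine and a murine listing, so the 20 listings stand for fewer miRNAs. This median moved with the arrays used. It was 0.33 over all 8 arrays and -0.019 with DoCM5 left out in place of DoCM8, where 9 of the 20, and 220 of all 438 names, were above 0 and 1 of the 20, cfa-miR-30c at -0.98 (SE 0.32), was past both limits, against 5.25% of all names. cfa-miR-30c rested on 27 kept features. The murine listing of this miRNA, mmu-miR-30c with 40, was at -0.32 (SE 0.21) without DoCM5 and did not pass.

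**Figure D5:**
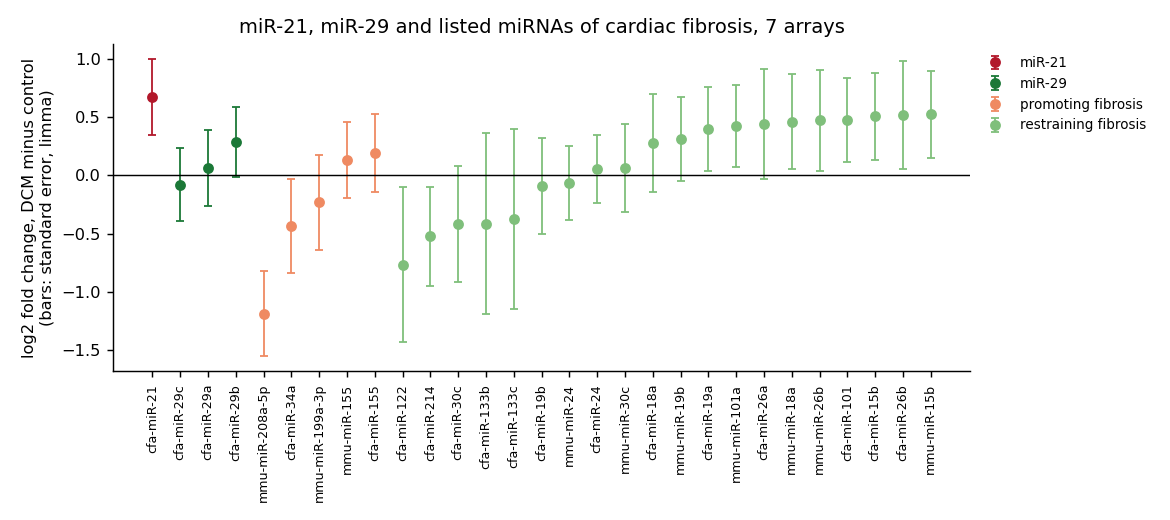
Log2 fold change of DCM minus control over 7 arrays, with its standard error from limma, for cfa-miR-21 (red), the miR-29 members (dark green), and the detected listings described as promoting (orange) or restraining (light green) cardiac fibrosis, each sorted by value. cfa-miR-21, at 0.68, has the highest value shown, and mmu-miR-208a-5p, at -1.19, the lowest.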

How the data were processed

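Serum RNA was hybridized to 8 one-colour Agilent miRNA arrays. The authors deposited the output of Agilent Feature Extraction 10.7.3.1, which gives each feature a background-subtracted intensity that was not normalized between arrays. A value table with the same intensities was also deposited. Groups were taken from the labels. Outlier-flagged features were dropped from the array concerned. Features had to be well above background on 2 or more of a group's arrays, which left 13423 features for 438 names. The mean signal per name was calibrated by the vsn model (least trimmed squares quantile 0.9, 5 slices, 7 iterations) in an own implementation. All names were compared in limma 3.58.1 (R 4.3.3). The limits were a fold change over 1.5 at p under 0.05, and p-values were also adjusted by Benjamini-Hochberg. Permutation tests were exact and two-sided. Scripts were tested on simulated data.

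The members, the lists of fibrosis and cell type miRNAs, and the tests were chosen with earlier results of these data known. The names given in the text were the members, the 5 names most like cfa-miR-21 and cfa-miR-29a, star listings of their hairpins, and list members past the limits. Beyond this rule, cfa-miR-122, cfa-miR-208a, cfa-miR-208b, cfa-miR-499 and cfa-miR-451 were named as defining markers of their tissues, and cfa-miR-144 was named, as chosen after its value was seen, where it passed over all 8 arrays. cfa-miR-223, mmu-miR-223 and mmu-miR-30c were also named after their values were seen. Alternatives covered the arrays, normalization, signal column, averaging, filter, test and slide column.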

Additional observations from a re-analysis of the deposited data

Results flagged for a closer look

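In the DCM group, cfa-miR-29b had a normalized value of 8.15 on the array labelled DoCM8, against 7.44 to 7.48 on the other DCM arrays. The gap to the nearest of them was 0.94 of the range of the group, above the critical value of Dixon's test for 4 samples. Of 20 groups of 4 arrays examined, 1 exceeded this value, and chance gives about 1 in 20. Without this array the log2 fold change of cfa-miR-29b was 0.29, and with it 0.46, neither past the limits.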

How the results depend on the processing

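Dogs could not be paired between the groups, because no replicate number occurs in both. Arrays could be matched only by their column on the slide, a position and no pairing of dogs. Unless given, the cause was not tested. The alternatives of each miRNA include the deposited value table, which holds the same intensities and could only return the main value. They also count each of the 2 probes of cfa-miR-21 or of a miR-29 member separately. cfa-miR-21 kept its direction in all 24 alternatives, with log2 fold changes from 0.45 to 1.04, and passed both limits in 7 of them, over all 8 arrays (0.68), without DoCM5 in place of DoCM8 (0.75), with 75th percentile scaling over all names (1.04, with a median of 0.11 over all names), the median over features (0.94), no filter on dim features (0.90), array weights over 8 arrays (0.62), and among arrays left out in turn (0.50 to 0.79) without DoCM5. The smallest adjusted p of cfa-miR-21 in limma was 0.362. The other percentile scaling, over names above background on all arrays, gave 0.74 against a median of -0.19 over all names.

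cfa-miR-29a turned sign with normexp correction (-0.0026), the slide column as a block (-0.029), the median over features (-0.052) and among arrays left out in turn (-0.083 to 0.28) without DoCM6, DoCM7 or Con4. Its highest values were 0.43 with 75th percentile scaling over all names and 0.41 with array weights, neither past the limits. cfa-miR-29b passed both limits with array weights (0.67) and turned sign with the median over features (-0.90), where the median of 40 features falls between a dim and a bright probe, and ran from 0.23 to 0.36 with arrays left out. cfa-miR-29c turned sign over all 8 arrays (0.13), without DoCM5 in place of DoCM8 (0.25), with 75th percentile scaling over all names (0.29), no filter (0.14) and array weights (0.42), and ran from -0.20 to -0.00052 with arrays left out. cfa-miR-21 relative to cfa-miR-29a (0.33 to 0.99) and to cfa-miR-29b (0.11 to 1.84) kept its direction and stayed short of the limits in all 24 alternatives. Relative to cfa-miR-29c it ran from 0.50 to 1.01, and passed with the median over features (1.01).

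The count of names past both limits, 11 of 438 over 7 arrays, was 17 over all 8 arrays, 23 without DoCM5 in place of DoCM8, 2 with normexp and 34 with array weights. It was 41 of 1224 names without a filter and 7 of 349 names with at least 50% of the features kept, and 21 of 867 probe values passed when probes were tested singly. The count ran from 9 to 32 with arrays left out in turn, the highest being 28 without DoCM5 and 32 without DoCM6. Higher and lower calls were 6 and 5 with vsn, 3 and 10 or 4 and 7 with the percentile scalings, and 4 and 8 with quantile normalization. After adjustment 0 names passed in every setting of limma run, with 7 to 41 at an unadjusted p under 0.05.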

Other observations

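The opposite strands of the same hairpins are listed as murine star names, and they were dim in this dog serum. mmu-miR-21* had 1 of 40 features above background, on Con1, mmu-miR-29a* had 0 on every array, and mmu-miR-29b-2* had 1 on Con2 and 1 on Con4. None of these 3 kept a feature, so no value is given. mmu-miR-29b-1* rested on 8 kept features, with at most 15 of 40 above background on any array. mmu-miR-29c*, with 38 kept features, was the strand best measured, at 3.53, 2.81, 2.50 and 3.12 on DoCM5 to DoCM8 and 2.998, 3.37, 3.17 and 2.80 on Con1 to Con4. Its groups overlapped, with a log2 fold change of -0.14 over 7 arrays (SE 0.35, 95% interval -0.90 to 0.63), -0.091 over all 8 arrays and -0.27 without DoCM5 in place of DoCM8.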
